A study of Mus musculus with 9 samples.

Results

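The C-type lectin receptors described here are the products of 10 mouse genes, Clec4a1, Clec4a2, Clec4a3, Clec4a4, Clec4d, Clec4e, Clec4n, Clec7a, Clec12a and Clec10a. They were chosen by gene name from the 28379 genes of the deposited table, all 10 were found there, and all 10 passed the filter on low counts. RNA sequencing measured them in bone marrow-derived macrophages (BMDMs), the precursors that RANKL turns into osteoclasts. BMDMs of C57BL/6 mice (C57BL/6J in the study's methods) were kept in 20 ng/ml M-CSF and formed 3 groups of 3 libraries, harvested after 48 h. The PBS group received no RANKL and no vitamins. The RANKL group received 100 ng/ml RANKL. The RANKL + Vit D + K group, called the vitamin group below, received the same RANKL with 1000 nM calcitriol (vitamin D) and MK4 (vitamin K), labelled as 20 µM. No group received a single vitamin, so the parts of vitamins D and K cannot be told apart. The study's methods describe libraries made from pooled RNA, without naming the cultures, so the p-values measure the spread between these libraries, which may be technical.

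C-type lectin receptors are membrane proteins of myeloid cells that bind sugars, glycolipids or proteins on microbes and on damaged or dying cells. Dectin-2 (Clec4n), MCL (Clec4d) and Mincle (Clec4e) signal through the adaptor FcRγ and the kinase Syk to the CARD9 complex, NF-κB and cytokine genes, and Dectin-1 (Clec7a) reaches Syk through a motif in its own tail. DCIR (Clec4a2), DCIR2 (Clec4a4) and MICL (Clec12a) carry an inhibitory motif of the kind that recruits the phosphatases SHP-1 and SHP-2. In bone, FcRγ and the adaptor DAP12 also supply the costimulatory signal that osteoclast precursors need beside RANKL.

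Libraries held from 65915112 to 68229647 counts. All 9 macrophage markers fixed for the check of cell identity had a mean above 1 FPKM in every group. FPKM, the fragment count scaled to transcript length and library size, is used below for levels. RANKL treatment was visible in Acp5 (TRAP) and Ctsk (cathepsin K), enzymes of the osteoclast. Acp5 was 4.06, 4.94 and 3.59 FPKM with PBS, 223, 271 and 161 with RANKL and 1.02, 7.86 and 1.56 with the vitamins. Cyp24a1, the vitamin D-degrading enzyme that vitamin D induces, had 39, 113 and 64 counts in the vitamin group and 0 in every RANKL library. Library 2 of the vitamin group stood apart. Without it, edgeR called 3773 genes higher and 4486 lower than in the RANKL group, against 2796 and 2929 with it. All libraries share 1 estimate of the spread, and after RANKL 972 genes were called higher and 931 lower without it, against 400 and 214. The values of the 10 genes, the called adaptor and signalling genes, and Fcer1g, Syk and Card9 were followed without this library. Where a call or a direction of these printed below changed, the value is given beside it. Uncalled values of other genes were not followed in this way.

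In the RANKL group, as compared to the PBS group, 1 of the 10 genes rose and 1 fell at an adjusted p under 0.05 in edgeR's quasi-likelihood test. Over all 17002 genes tested, 2.35% rose and 1.26% fell. In the vitamin group as compared to the RANKL group, Clec4e rose and 5 genes fell, namely Clec4a1, Clec4a2, Clec4a3, Clec4a4 and Clec10a. Of all genes tested, 16.4% rose and 17.2% fell in that comparison. The median log2 fold change of the 10 genes was -0.07 after RANKL and -0.98 when the vitamins were added, beside -0.04 over all genes in both comparisons. With limma on log2(FPKM + 0.1), 35.6% of the genes called with vitamins were higher, against 48.8% in edgeR. The 6 calls among the lectin receptor genes were made in each of the 20 alternative settings tried for this comparison.

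**Figure D1:**
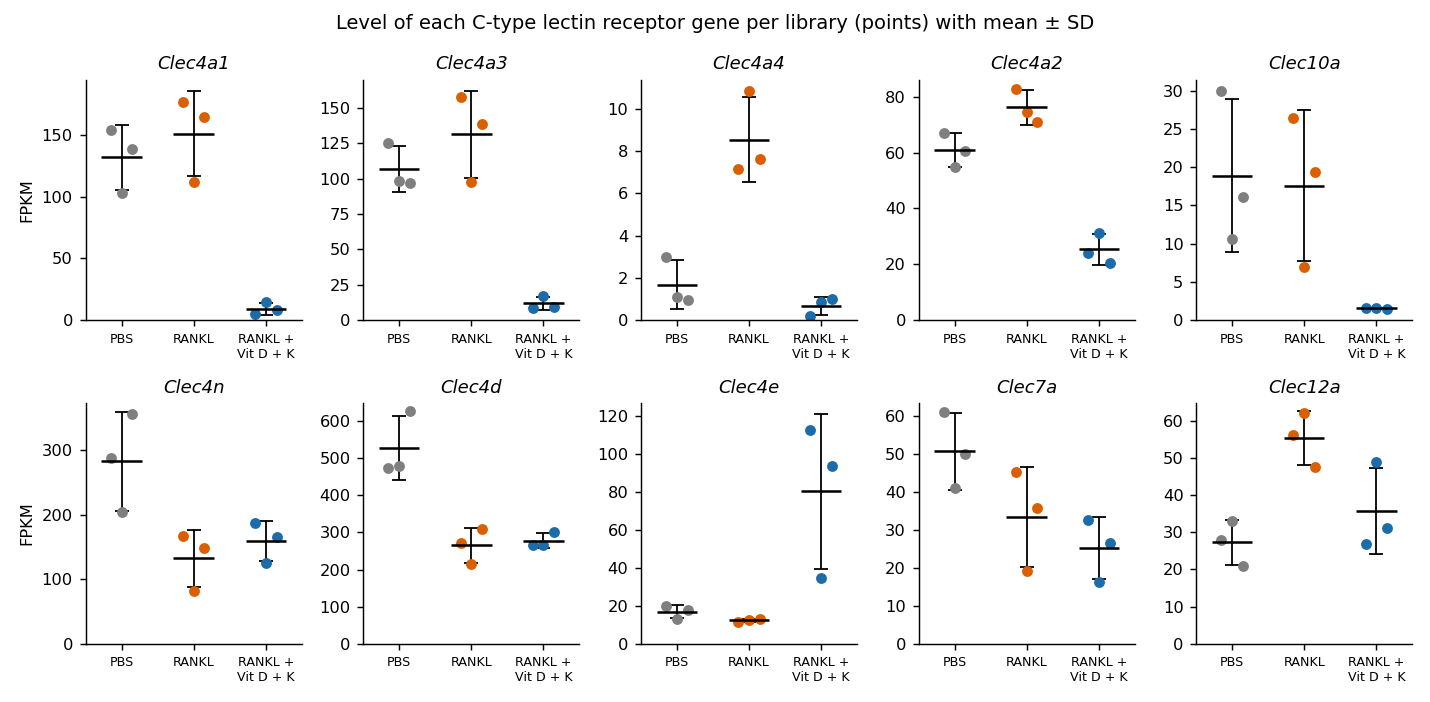
FPKM of each of the 10 C-type lectin receptor genes in the 9 libraries, 1 panel per gene with its own axis from 0, for the PBS, RANKL and RANKL + Vit D + K groups. Points are libraries in the order of their replicate numbers, and bars give the mean ± SD of 3 libraries. The 3 blue points lie below all other points for Clec4a1, Clec4a3, Clec4a2 and Clec10a and above all other points for Clec4e.

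Clec4a1 encodes DCIR4, a receptor of the DCIR family found on monocytes and macrophages. Its level was 154, 103 and 139 FPKM in PBS libraries 1, 2 and 3, 177, 112 and 165 with RANKL and 4.59, 14.5 and 8.0 with RANKL and vitamins. The PBS and RANKL libraries overlapped, and every vitamin-treated library lay far below both. The means were 132 ± 26.3, 151 ± 34.6 and 9.04 ± 5.05 FPKM (SD, n = 3), so the vitamins lowered the mean 16.7-fold. The log2 fold change with vitamins was -3.97 ± 0.38 (SE, edgeR adjusted p = 0.000397), and without vitamin library 2 it was -4.38. RANKL alone gave 0.08 ± 0.34 (adjusted p = 0.939), with a 95% interval of -0.69 to 0.84.

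Clec4a3 encodes DCIR3, a close relative of DCIR, and its pattern resembled that of Clec4a1. The PBS libraries gave 125, 97.9 and 96.9 FPKM, the RANKL libraries 158, 97.3 and 139 and the vitamin-treated libraries 8.73, 17.3 and 9.54. Again the vitamin-treated libraries formed the lowest set, with no overlap, while the PBS and RANKL libraries were mixed. With vitamins the mean fell from 131 ± 30.9 to 11.9 ± 4.73 FPKM, a log2 fold change of -3.36 ± 0.28 (edgeR adjusted p = 0.000259). RANKL against PBS gave 0.18 ± 0.25 (adjusted p = 0.769).

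Clec4a2 encodes DCIR itself, the inhibitory receptor that gives the family its name. Its values were 67.1, 54.9 and 60.6 FPKM for PBS, 83.0, 74.7 and 71.0 for RANKL and 24.2, 31.3 and 20.6 for the vitamin group. The 3 groups did not overlap, with the RANKL libraries highest and the vitamin-treated libraries lowest. With vitamins the log2 fold change was -1.45 ± 0.15 (95% interval -1.78 to -1.12, edgeR adjusted p = 0.000452), whereas the difference of 0.20 ± 0.14 after RANKL did not pass the test (adjusted p = 0.514). Of the 50-base words in its longest protein-coding transcript, 8.92% also occurred in transcripts of 447 other genes, so some of its reads could have been shared.

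Clec4a4 encodes DCIR2, an inhibitory receptor known from dendritic cells, and was the lowest of the 10 genes in every group. It had 3.00, 1.08 and 0.962 FPKM in the PBS libraries, 7.13, 10.8 and 7.64 in the RANKL libraries and 0.198, 0.858 and 0.992 in the vitamin-treated ones. Every RANKL library exceeded every other library, and the PBS and vitamin-treated libraries overlapped. Its counts were 172, 63 and 56, 414, 629 and 462, and 12, 52 and 58 in the same order, the thinnest data among these genes. The log2 fold change was 2.20 ± 0.58 after RANKL, which did not pass the test (edgeR adjusted p = 0.0758), and -3.49 ± 0.62 when vitamins were added (adjusted p = 0.00404). The first of these passed the test in 7 of 20 alternative settings, among them DESeq2 (adjusted p = 0.00165) and edgeR without vitamin library 2 (adjusted p = 0.0476). With single libraries left out it ranged from 1.99 to 2.99, the highest without PBS library 1. On the scale of log2(FPKM + 1) the second shrank to -2.52. Its transcript shared 15.7% of its 50-base words with Clec4a2, so reads of both genes could have been exchanged.

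Clec10a encodes MGL1, a lectin that binds galactose and N-acetylgalactosamine and is used as a mark of alternatively activated macrophages. It was 30.0, 10.6 and 16.1 FPKM in the PBS libraries, 26.4, 6.98 and 19.4 in the RANKL libraries and 1.51, 1.59 and 1.49 in the vitamin-treated libraries. Both groups without vitamins varied widely and overlapped, with library 2 lowest in each, while the vitamin-treated libraries were low and close together. The log2 fold change with vitamins was -3.39 ± 0.54 (edgeR adjusted p = 0.00256), and -2.70 on the scale of log2(FPKM + 1). Mgl2, its neighbouring paralog, shared 10.6% of the 50-base words of the Clec10a transcript. Mgl2 was much lower in level and also fell, by 4.61 on the log2 scale (adjusted p = 0.00362), from 6.27, 1.72 and 3.01 to 0.0792, 0.242 and 0.0846 FPKM.

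Clec4d, Clec4e and Clec4n lie side by side and encode the FcRγ-coupled receptors. To show the start regions of Clec4e, which rose with vitamins, of its neighbour Clec4d, which did not pass the test, and of Clec4a1, the gene with the largest fall, the 250 bases before each start site follow, 5′ to 3′ on the strand of the gene (RefSeq, GRCm38.p6). The window is chr6:123289872-123290121 on the minus strand for Clec4e, chr6:123261857-123262106 on the plus strand for Clec4d and chr6:122921598-122921847 on the plus strand for Clec4a1. Capitals mark the only motif match found in these 3 windows.
Clec4e: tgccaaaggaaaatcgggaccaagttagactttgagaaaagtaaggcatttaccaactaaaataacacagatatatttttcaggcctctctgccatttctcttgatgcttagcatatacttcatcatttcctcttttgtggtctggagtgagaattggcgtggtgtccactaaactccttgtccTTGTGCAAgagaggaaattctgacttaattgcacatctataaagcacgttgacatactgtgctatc
Clec4d: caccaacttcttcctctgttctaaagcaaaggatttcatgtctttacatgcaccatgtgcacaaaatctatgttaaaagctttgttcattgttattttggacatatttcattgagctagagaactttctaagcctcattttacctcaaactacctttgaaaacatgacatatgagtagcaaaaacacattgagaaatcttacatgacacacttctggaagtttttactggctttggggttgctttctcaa
Clec4a1: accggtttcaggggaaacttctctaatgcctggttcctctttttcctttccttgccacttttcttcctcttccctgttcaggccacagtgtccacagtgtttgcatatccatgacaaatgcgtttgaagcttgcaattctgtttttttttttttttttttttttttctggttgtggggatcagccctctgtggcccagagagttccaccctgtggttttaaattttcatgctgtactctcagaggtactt
The match in Clec4e lies 66 to 59 bases before its start and is TTGCNNAA, a C/EBP-type motif, read on the other strand. Of 32851 RefSeq windows of this length, 9.56% held the motif on either strand, and Clec12a was the only other one of the 7 lectin receptor genes with a window that held it. The other motifs searched on both strands were PU.1 (GAGGAAGT, 2.44% of windows), AP-1 (TGANTCA, 6.75%, held by Clec12a), CRE (TGACGTCA, 1.55%), C/EBP-ATF (TGATGCAA, 0.791%), and ISRE, DR3 and NF-κB sites (2.98%, 0.0396% and 3.90%). A match is a stretch of letters and was not tested for binding.

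Clec4e encodes Mincle, a receptor for mycobacterial cord factor and for the nuclear protein SAP130 released by dying cells, and it was the single gene of the 10 that rose with vitamins. Its level was 19.9, 13.2 and 17.8 FPKM with PBS, 11.6, 12.5 and 12.9 with RANKL and 113, 34.6 and 93.6 with the vitamins. All vitamin-treated libraries lay above all others, although library 2 was far below libraries 1 and 3. The means without and with vitamins were 12.3 ± 0.671 and 80.3 ± 40.7 FPKM, a 6.53-fold difference. The log2 fold change was 2.90 ± 0.42 against RANKL (edgeR adjusted p = 0.00185) and 2.31 ± 0.41 against PBS (adjusted p = 0.00280). Without vitamin library 2 the first of these was 3.29. After RANKL alone it was -0.59 ± 0.40 (adjusted p = 0.483).

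Clec4d encodes MCL, also called Dectin-3, which forms a complex with Mincle and helps to bring it to the cell surface. It was the most abundant of the 10 transcripts in every group. The PBS libraries had 475, 480.3 and 627 FPKM, the RANKL libraries 272, 215 and 309.7 and the vitamin-treated libraries 265, 267 and 301. Every PBS library was higher than every library with RANKL, and both groups that received RANKL overlapped. RANKL lowered the mean 1.99-fold, with a log2 fold change of -1.11 ± 0.19 (edgeR adjusted p = 0.0186). This call was lost when any of 4 libraries was left out, with an adjusted p of 0.0595 without PBS library 1, 0.082 without PBS library 3, 0.0664 without RANKL library 1 and 0.0534 without RANKL library 2. The lower level with RANKL and vitamins than in the PBS group (-0.90 ± 0.19, adjusted p = 0.00609) was called in all 20 alternatives. With vitamins against RANKL alone the difference was 0.21 ± 0.19, with a 95% interval of -0.22 to 0.64 and an adjusted p of 0.432.

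Mincle and MCL act as partners, so their transcript levels were also set against each other within each library. The FPKM ratio of Clec4e to Clec4d was 0.0419, 0.0275 and 0.0284 with PBS, 0.0426, 0.0582 and 0.0415 with RANKL, and 0.425, 0.130 and 0.311 with vitamins. The lowest ratio with vitamins, in library 2, was above the highest ratio without them.

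Clec4n encodes Dectin-2, the receptor for mannans of fungi. It measured 288, 204 and 356 FPKM in PBS libraries, 167, 82.5 and 149 in RANKL libraries and 187, 126 and 165 in vitamin-treated libraries. The PBS libraries were above all others, and the groups with RANKL overlapped. The log2 fold change after RANKL was -1.21 ± 0.33, past the unadjusted threshold but not the adjusted one (edgeR adjusted p = 0.0846). When replicate number was included as a block, it was -1.24 with an adjusted p of 0.00806, and without vitamin library 2 it was -1.21 with an adjusted p of 0.0396. With vitamins against RANKL it was 0.42 ± 0.33 (95% interval -0.32 to 1.15, adjusted p = 0.355).

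Clec7a encodes Dectin-1, the receptor for beta-glucans of fungal walls. Its level was 61.1, 40.9 and 50 FPKM in the PBS libraries, 45.2, 19.1 and 35.6 in the RANKL libraries and 32.7, 16.4 and 26.5 in the vitamin-treated libraries. Library 2 was lowest in each group, the RANKL group overlapped with both others, and the PBS libraries all exceeded the vitamin-treated ones. RANKL gave a log2 fold change of -0.72 ± 0.38 (edgeR adjusted p = 0.360), which with the replicate block was -0.81 (adjusted p = 0.0394). Against RANKL, the vitamins gave -0.24 ± 0.38 (adjusted p = 0.655), and 0.036 without vitamin library 2 (adjusted p = 0.942).

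Clec12a encodes MICL, an inhibitory receptor for uric acid crystals, and it was the 1 gene that rose with RANKL. The PBS libraries had 28, 33.0 and 21 FPKM, the RANKL libraries 56.3, 62.0 and 47.6 and the vitamin-treated libraries 26.9, 49.0 and 31.2. The RANKL libraries were above all PBS libraries, and the vitamin-treated libraries overlapped with both groups. After RANKL the log2 fold change was 0.89 ± 0.20 (edgeR adjusted p = 0.0446), close to the threshold. It was lost when any one of the PBS or RANKL libraries was left out, with adjusted p of 0.137, 0.0579 and 0.156 without PBS libraries 1, 2 and 3, and 0.126, 0.147 and 0.0782 without RANKL libraries 1, 2 and 3. It was also lost without vitamin library 3 (0.0635). With vitamins against RANKL it was -0.50 ± 0.20 (adjusted p = 0.0759), and without vitamin library 2 it passed the test (-0.71, adjusted p = 0.00811). The count of genes called lower after RANKL was 1 without the replicate block and 3 with it, Clec4d, Clec4n and Clec7a, while Clec12a remained the 1 gene called higher.

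**Figure D2:**
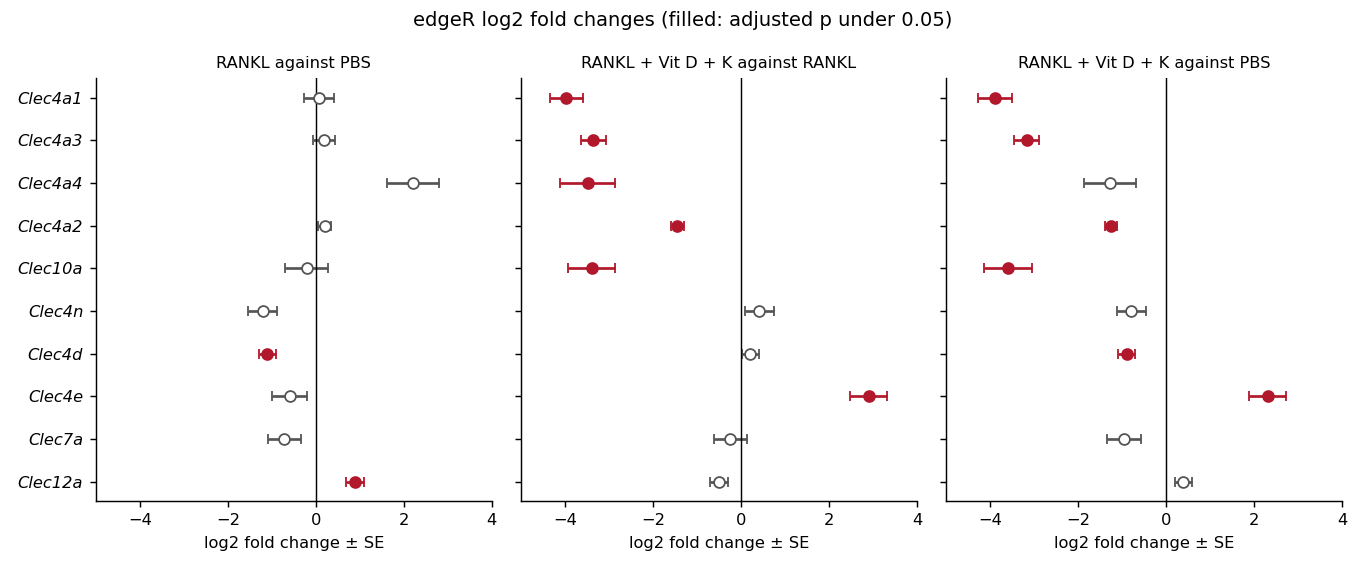
edgeR log2 fold changes ± SE of the 10 genes in the 3 comparisons, fitted on 3 libraries per group. Filled red points have an adjusted p under 0.05. Only Clec4d and Clec12a are filled for RANKL against PBS, and with vitamins against RANKL 5 filled points lie to the left of 0 and that of Clec4e to the right.

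Beyond the test, the groups of libraries were also compared by whether their FPKM ranges overlapped. Between the RANKL and PBS groups, 3 genes lay wholly higher (Clec4a2, Clec4a4 and Clec12a) and 3 wholly lower (Clec4d, Clec4e and Clec4n), beside 22.4% and 12.9% of all genes tested. Between the vitamin and RANKL groups the non-overlapping genes were the 6 genes called, 1 higher and 5 lower, beside 17% and 29.2%. With 3 libraries a side, the smallest two-sided p of an exact permutation test is 0.1, so that test cannot pass 0.05 for a single gene here. As compared to the PBS group, the vitamin group had 1 gene called higher (Clec4e) and 5 lower (Clec4a1, Clec4a2, Clec4a3, Clec10a and Clec4d), beside 19.8% and 21% of all genes, and 1 and 7 genes lay wholly above and below, beside 24.8% and 27.7%. Clec4a4 was not among the genes called (-1.28 ± 0.59, edgeR adjusted p = 0.109), and its value was -0.51 without PBS library 1 (adjusted p = 0.518) and -0.81 without vitamin library 1 (adjusted p = 0.260). This comparison shares libraries with both others and is no separate evidence for the same change.

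The make-up of the lectin receptor transcripts shifted between the groups. The summed FPKM of the 10 genes was 1251, 1039 and 1385 in the PBS libraries, 1002, 693 and 956 in the RANKL libraries, and 664, 558 and 658 in the vitamin-treated libraries. The vitamin-treated libraries had the lowest sums, without overlap. Clec4d made up 43.2%, 30.2% and 44.5% of the sum on average in the PBS, RANKL and vitamin groups. Clec4e rose from 1.38% and 1.44% to 12.5%, while Clec4a1 went from 10.8% and 17.0% to 1.5% and Clec4a3 from 8.81% and 14.8% to 1.95%. These shares depend on one another, since they add up to the whole.

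**Figure D3:**
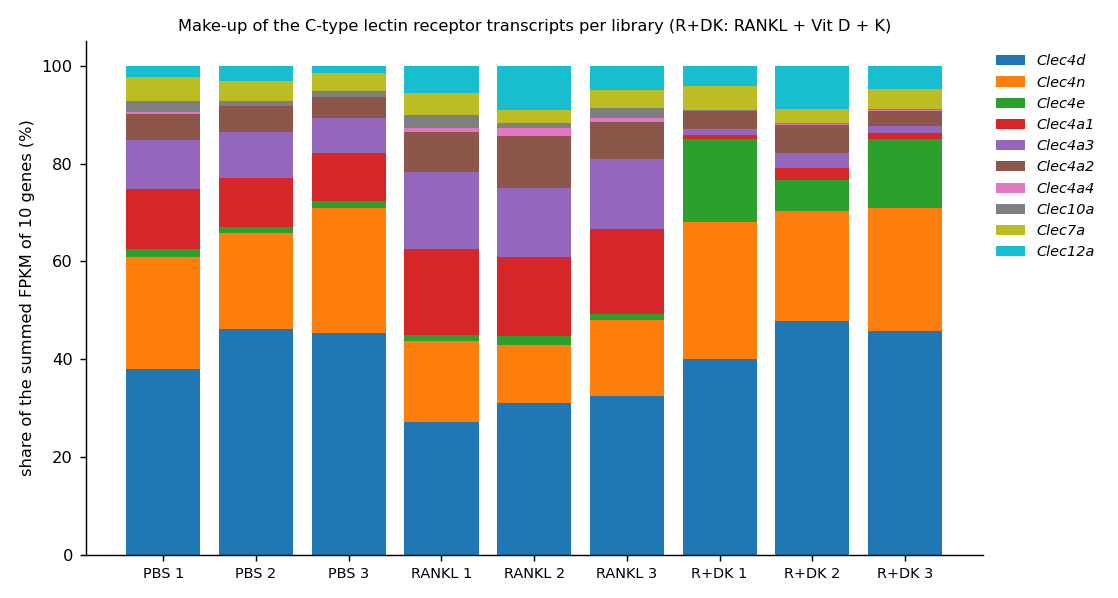
Share in % of the summed FPKM of the 10 genes that each gene held in each of the 9 libraries (PBS 1 to 3, RANKL 1 to 3, and R+DK 1 to 3 for RANKL + Vit D + K). Each bar adds up to the whole, and the green segment of Clec4e widens while the segments of Clec4a1 and Clec4a3 shrink in the vitamin-treated libraries.

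In order of mean FPKM, Clec4d stood first in all groups and Clec4a4 last. In the PBS group Clec4n was second, followed by Clec4a1 and Clec4a3, whose libraries overlapped. In the RANKL group Clec4a1, Clec4n and Clec4a3 followed Clec4d, and neighbours in that order overlapped. With vitamins Clec4e moved from the ninth place in both other groups to the third, at 80.3 FPKM, and Clec4a1 went from the second place with RANKL to the eighth. Between Clec4e and Clec4a1 in that group, each gene overlapped with the next in the order Clec4e, Clec12a, Clec4a2, Clec7a, Clec4a3 and Clec4a1, so no neighbours in this order differed beyond their spread. Genes farther apart in it were separated, except Clec12a and Clec7a, whose libraries overlapped (26.9 to 49.0 and 16.4 to 32.7 FPKM). The lowest library of Clec4e (34.6 FPKM) lay above every library of Clec4a2, Clec7a, Clec4a3 and Clec4a1, and those of Clec12a (26.9) and Clec4a2 (20.6) lay above every library of Clec4a3 and Clec4a1.

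Of the 10 genes, 7 form 1 cluster on mouse chromosome 6, from 122921848 (start of Clec4a1) to 123289870 (start of Clec4e) in GRCm38 coordinates. Transcription starts were taken here as the 5′ ends of the gene records. From Clec4a1, those of Clec4a3, Clec4a4, Clec4a2, Clec4n, Clec4d and Clec4e follow at 30.7, 68.5, 185, 308, 340 and 368 kb. Clec4e is on the minus strand and the others are on the plus strand. A RefSeq start can differ from the end of the record, as for Clec4a2, whose RefSeq window ended at 123122689 and whose record begins at 123106428. With vitamins, the 4 genes at the Clec4a end fell, Clec4n and Clec4d did not pass the test in either direction, and Clec4e at the far end rose. Of the lectin genes between them that are not among the 10, Clec4b1 fell from 69, 90 and 45 counts in the RANKL libraries to 0, 5 and 0 (-5.16 ± 1.01, edgeR adjusted p = 0.00590). Clec4b2 had 14, 36 and 0 counts with RANKL and 0 in every vitamin-treated library, and did not pass the test. Of 9 other genes tested within 200 kb of the cluster, 3 rose (Slc2a3, Foxj2 and Necap1) and 2 fell (C3ar1 and Clec4b1) with vitamins. Clec12a (129342691 to 129364416) and Clec7a (129461591 to 129472779, minus strand) lie farther along chromosome 6, and Clec10a is on chromosome 11 (70156197 to 70170834).

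**Figure D4:**
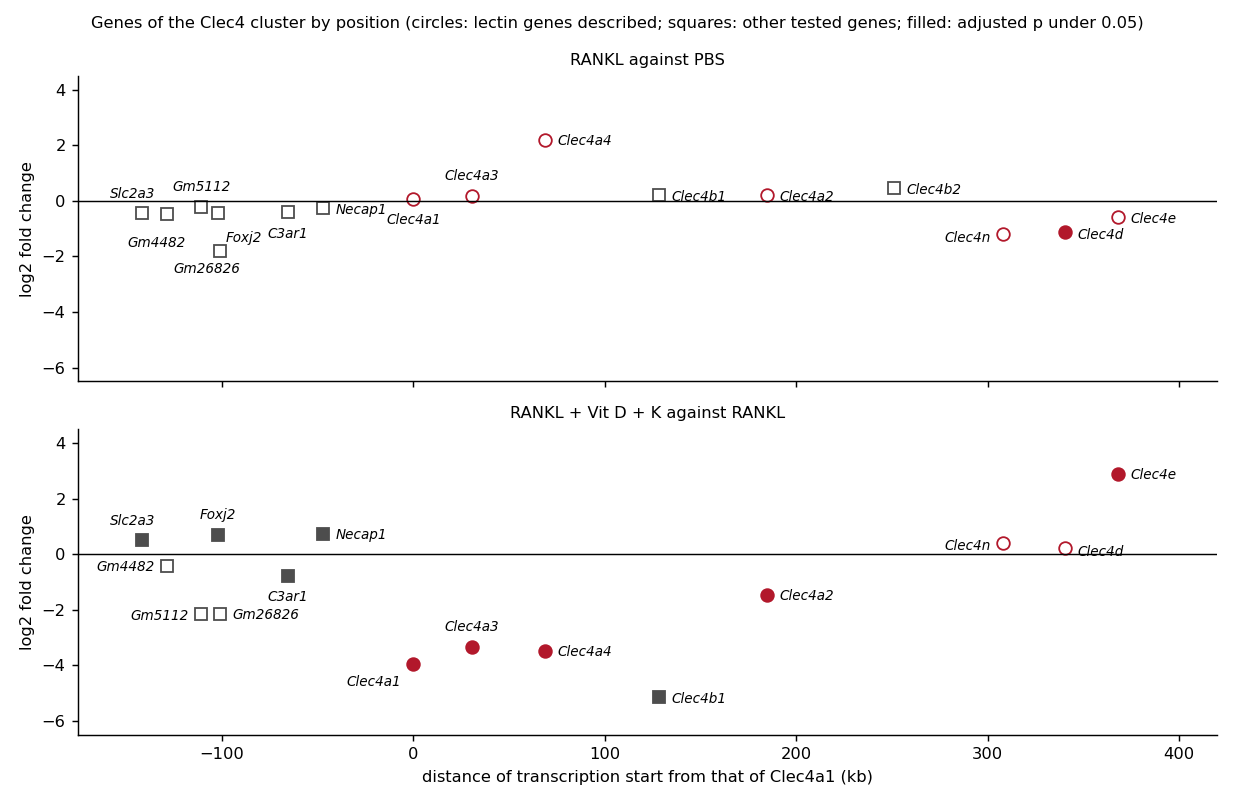
edgeR log2 fold change of each tested gene within 200 kb of the Clec4 cluster against the distance of its transcription start (5′ end of the gene record) from that of Clec4a1 in kb, for RANKL against PBS (top) and RANKL + Vit D + K against RANKL (bottom). Circles are the lectin genes described, squares other genes, and filled symbols have an adjusted p under 0.05. With vitamins the 4 circles at the Clec4a end are filled and below 0, and Clec4e is filled and above 0. Clec4b2 is left out of the lower panel because it had 0 counts in all vitamin-treated libraries.

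The genes whose profile over the 9 libraries was nearest to each lectin receptor gene were found by the root-mean-square difference of log2 CPM (counts scaled to library size), after each gene was centred on its own mean. For Clec4e they were Ptgir, the prostacyclin receptor, and the cytokine gene Osm, at 0.18 and 0.20 log2 units. For Clec4a1 they were Ifi209 and Gbp3 (0.27 and 0.28), both of which belong to interferon-inducible families. For Clec4a3 they were Sesn1 and H2-T24 (0.28 and 0.29), for Clec4a2 Pkig and Mllt6 (0.17 and 0.18), and for Clec10a Cyp27a1 and Ifit2 (0.41 and 0.41). Clec4a4 had no neighbour so near, with Mras at 0.60 and Ifi202b at 0.63. Clec4d was nearest to Creg1 and Kansl2 (0.15 and 0.15) and Clec12a to Klf8 and Etfb (0.12 and 0.13). None of the 10 genes was as near to another of the 10 as to these, and the closest pair among them was Clec4d and Clec4n, at 0.26.

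The list of 28 other C-type lectin receptor genes had 19 members tested. Against PBS, RANKL raised 1 of them, Ly75 (2.06, edgeR adjusted p = 0.0217), a call lost when any of 5 libraries was left out (0.101 at most, without PBS library 3). When vitamins were added, 2 rose and 6 fell, and the median log2 fold change of the list was -0.61, beside -0.04 over all genes. Besides Mgl2 and Clec4b1, those with the smallest p included Cd302 (-2.17 ± 0.42, edgeR adjusted p = 0.00577) and Cd72 (-1.34 ± 0.31, adjusted p = 0.0114), an inhibitory lectin. The 2 that rose, named here after their values were seen, were Clec5a (0.93 ± 0.24, adjusted p = 0.0165), which signals through DAP12, and Ly75 (1.17 ± 0.36, adjusted p = 0.0345). The call of Clec5a was lost in 7 of 20 alternatives and that of Ly75 in 12. With single libraries left out, any of 3 ended the first (adjusted p up to 0.0686, without RANKL library 1) and any of 7 the second (up to 0.142, without vitamin library 1).

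Among the 10 adaptors and proximal kinases reported here, 1 rose and 4 fell with vitamins. Tyrobp, which encodes DAP12, fell from 906, 662 and 842 to 352, 528 and 358 FPKM (-0.84 ± 0.17, edgeR adjusted p = 0.00604). The Src family kinase genes Src (-2.27 ± 0.24, adjusted p = 0.000613) and Fgr (-2.09 ± 0.39, adjusted p = 0.00502) fell after having risen with RANKL by 4.57 and 2.71. The rise of Fgr was not called without PBS library 3 (adjusted p = 0.0619). Prkcd fell by 0.47 on the log2 scale, a call that was lost when any of 3 libraries was left out (adjusted p up to 0.0840, without RANKL library 3), and Vav3 rose by 0.47. The genes of the Mincle adaptor FcRγ and of Syk and CARD9 downstream of it were chosen for naming after their values were seen. They did not pass the test with vitamins against RANKL, with -0.19 ± 0.11 for Fcer1g (FcRγ, edgeR adjusted p = 0.226), -0.13 ± 0.20 for Syk (adjusted p = 0.645) and -0.25 ± 0.15 for Card9 (adjusted p = 0.214). Without vitamin library 2, Card9 passed the test and was lower (-0.39, adjusted p = 0.0244), and Syk was 0.065 (adjusted p = 0.729). Against PBS, the vitamin group was lower in Fcer1g (-0.63 ± 0.11, edgeR adjusted p = 0.00260), in Lyn, another Src family kinase gene (-0.74 ± 0.16, adjusted p = 0.00633), and in Tyrobp and Prkcd, and higher in Src, and these 5 calls were made in all 20 alternatives. The FPKM of Fcer1g was 446, 446 and 432 with PBS, 380.0, 319 and 358 with RANKL and 254, 319 and 271 with vitamins.

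Of the 5 CARD9 complex genes, Malt1 rose with RANKL (1.24 ± 0.18, edgeR adjusted p = 0.00932) and Traf6 rose by 0.76 with vitamins, and the first call was lost without PBS library 3 (adjusted p = 0.0522) and the second when either of 2 libraries was left out (adjusted p up to 0.0572, without RANKL library 1). Of the 3 genes listed for inhibitory phosphatases, Inpp5d (SHIP1, -0.73 ± 0.12, adjusted p = 0.00315) and Ptpn6 (SHP-1, -1.25 ± 0.32, adjusted p = 0.0163) fell with vitamins, and Ptpn11 (SHP-2) did not pass the test. The call of Ptpn6 was lost when either of 2 libraries was left out (adjusted p up to 0.0724, without vitamin library 3). Of 8 transcription factor genes, 2 rose with RANKL and 4 fell with vitamins. Nfkb2 rose with RANKL by 0.89 (adjusted p = 0.0199), a call lost when any of 5 libraries was left out (0.0714 at most, without PBS library 3). Both groups of genes included Nfatc1, the master regulator of osteoclasts (0.81 ± 0.13 and -1.27 ± 0.13), whose rise was no longer called when any of 3 libraries was left out (adjusted p up to 0.0630 without PBS library 3). Nfatc2 (-1.73) and Irf5 (-1.30) fell as well, and Nfkb2 fell by 0.64, a call lost when either of 2 libraries was left out (adjusted p up to 0.0660, without vitamin library 3). Against PBS, the vitamin group was lower in 5 of these 8 genes, namely Nfatc1, Nfatc2, Irf5, Rela (-0.40 ± 0.09, edgeR adjusted p = 0.00895) and Nfkb1 (-0.36 ± 0.12, adjusted p = 0.0330). Of the CARD9 complex genes, the kinase gene Map3k7 was lower as well (-0.27 ± 0.09, adjusted p = 0.0433). Malt1 was higher, a call made in all 20 alternatives. Of 20 alternatives, 3 lost the call of Rela, 10 that of Nfkb1 and 16 that of Map3k7. With single libraries left out, adjusted p reached 0.0672 for Rela and 0.105 for Nfatc1 (without vitamin library 3 and PBS library 1), and 0.185 for Nfkb1 and 0.236 for Map3k7 (without PBS library 1 and vitamin library 1).

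The 10 tested response genes of lectin receptor signalling moved both ways with vitamins, 4 higher and 3 lower. Ccl3, a chemokine, went from 19.2, 16.5 and 9.57 to 455, 116 and 324 FPKM (4.51 ± 0.58, edgeR adjusted p = 0.00113). As for Clec4e, library 2 of the vitamin-treated group was the lowest of its 3. Ptgs2, the inducible cyclooxygenase, rose by 3.93 (adjusted p = 0.000394), Egr2 by 2.52 (adjusted p = 0.00458) and Cxcl2 by 3.29 (adjusted p = 0.00401). The 3 that fell, named here after their values were seen, were Il1b, Il10 and Egr3. Il1b had 735, 196 and 2954 counts in the PBS libraries, 142, 32 and 506 in the RANKL libraries and 0 in each vitamin-treated library. Against RANKL, 2 of 20 alternatives lost the call of Il1b. They were limma on log2(FPKM + 1) (adjusted p = 0.259) and limma on log2(FPKM + 0.1) with no filter (adjusted p = 0.0645). After RANKL its log2 fold change was -2.67 (adjusted p = 0.296), and with the replicate block -2.65 (adjusted p = 0.00597). Il10 had 86, 81 and 24 counts with RANKL and 0, 7 and 0 with vitamins. Egr3 fell by 1.49, a call lost in 10 of 20 alternatives and when any of 6 libraries was left out (adjusted p up to 0.136, without vitamin library 3).

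Among 5 described endogenous ligands, Lgals9, a galectin that Dectin-1 binds, fell with vitamins (-1.01 ± 0.18, edgeR adjusted p = 0.00409). Sap130, whose protein Mincle recognises, rose by 0.80, a call lost in 6 of 20 alternatives and when any of 4 libraries was left out (adjusted p up to 0.0722, without RANKL library 1). Anxa1 and Vim rose after RANKL by 1.68 and 0.89 (adjusted p = 0.00530 and 0.0148), and the call of Vim was lost when any of 4 libraries was left out (0.0628 at most, without PBS library 1).

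**Figure D5:**
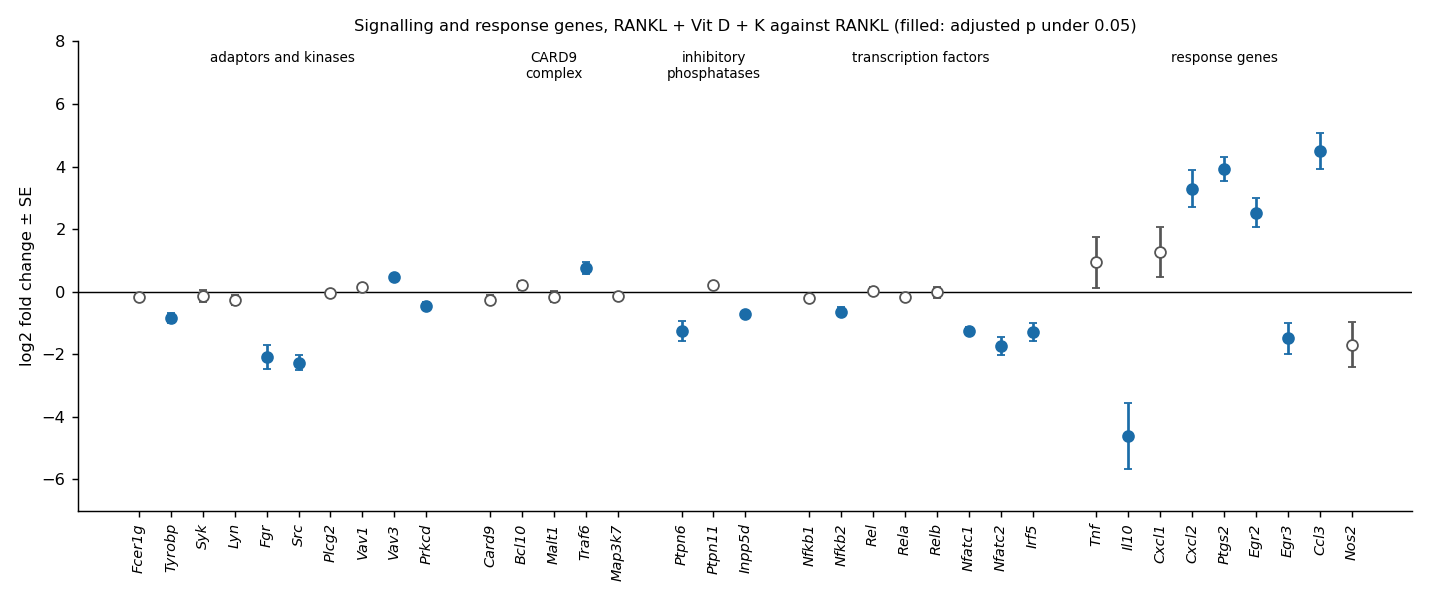
edgeR log2 fold change ± SE of tested genes of lectin receptor signalling, RANKL + Vit D + K against RANKL, 3 libraries per group. Filled points have an adjusted p under 0.05. Fcer1g, Syk and Card9 lie near 0 and are open, Src, Fgr and Tyrobp are filled and below 0, and Ccl3, Ptgs2, Cxcl2 and Egr2 are filled and above 0. Il1b is left out because it had 0 counts in all vitamin-treated libraries.

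Markers of cell types also differed between the groups. Of 9 macrophage markers, 7 fell and Cd68 rose with vitamins, and their summed FPKM was 26546 to 30803 with PBS, 16792 to 24486 with RANKL and 4542 to 11604 with vitamins. Lyz2 made up most of these sums. It was 28239, 24181 and 27772 FPKM with PBS, 22219, 15002 and 22166 with RANKL and 3189, 10168 and 4852 with vitamins. Of 5 monocyte markers 3 fell, with sums of 20.4 to 27.7, 21.3 to 34.1 and 0.261 to 4.84 FPKM. Of 9 neutrophil markers tested 7 fell, with sums of 11.1 to 129, 11.4 to 149 and 0.551 to 1.72 FPKM. From the RANKL to the vitamin group Clec4e rose, against the neutrophil and monocyte sums, whereas Clec4a1, Clec4a2, Clec4a3, Clec4a4 and Clec10a fell as they did. Single libraries within a group differed from this. The neutrophil marker S100a9 was highest in library 2 of the PBS and RANKL groups (56.5 and 66.9 FPKM), where Clec4a1 and Clec10a were lowest. Clec4a4 was highest in RANKL library 2, and the rank of library 2 for Clec4a2 and Clec4a3 differed between these groups. Of 6 dendritic cell markers, Itgax rose and Cd209a and Flt3 fell, with sums of 0.625 to 1.24, 2.17 to 2.62 and 6.60 to 8.07 FPKM. Itgax, which macrophages also express, made up nearly all of the sum with vitamins (7.93, 6.53 and 7.55 FPKM), where Cd209a and Flt3 had 0 counts in every library. Osteoclast markers summed to 13.7 to 21.1, 472 to 996 and 51.7 to 85.6 FPKM, and all 8 rose with RANKL, of which 7 were called with the replicate block. In the same RANKL libraries Clec4a2 and Clec4a4 lay above all other libraries, and Clec12a above all PBS libraries. The 4 B cell, 2 mast cell and basophil and 4 stromal markers measured summed to under 1 FPKM per list in every library, and Ebf1, a defining gene of B cells, was at 0 in all. Of the 6 T and NK cell markers only Klrb1c, an NK cell gene, was measured, at 0.103 FPKM or less, and the T cell genes of that list were not analysed here. The part of these shifts in the results was not tested. In bulk RNA, fewer cells of a type and less RNA per cell cannot be told apart.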

How the data were processed

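RNA of 9 BMDM libraries (3 groups of 3, grouped by the treatment in the labels) was selected by oligo(dT), and paired ends were sequenced on an Illumina NovaSeq. The authors deposited 1 table of whole-number counts per gene, not normalized, and of FPKM values scaled for length and library. Per the labels, the submitters' processing notes name cutadapt 1.9, HISAT2 2.0.4, StringTie 1.3.4d and edgeR. They list a human build, whereas the table carries mouse genes with GRCm38 coordinates, and 9 of the 10 genes have the same coordinates as in GENCODE M21. Strand use and the sharing of reads between similar genes are not given in the sources used here.

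Counts were filtered by filterByExpr (17002 of 28379 genes), normalized by TMM and compared in 1 model of all 9 libraries by edgeR 4.0.16 (R 4.3.3), with a quasi-likelihood test, Benjamini-Hochberg adjustment over all genes tested and a threshold of 0.05. The standard error is the log2 fold change over the square root of F. Alternatives were DESeq2 1.42.0, limma 3.58.1 on log2(FPKM + 0.1) and log2(FPKM + 1), other normalizations and filters, only the 2 groups compared, counts divided by 4, a replicate block and each library left out. The tests were also run on simulated counts with far fewer genes changed than were called here with vitamins. That run did not probe normalization under so wide a shift, and its outcome is not given here. Same-numbered libraries of the RANKL and PBS groups deviated together (r across genes 0.122, 0.219 and 0.155, above 0.1 in each), so their blocked values are given where a call changed.

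The 10 genes and all gene lists were chosen with earlier results of these data known. Named are the 10 genes, 3 treatment checks, the called genes of the signalling and ligand lists of up to 11 genes, the 4 with the smallest p against RANKL of longer lists (marker lists are given mainly as counts) and the 2 nearest profiles of each called gene. One gene of the adaptor and kinase list is not reported here. Shared 50-base words were counted over GENCODE M21 transcripts. A floor of 3 counts is at most 4.55e-06% of a library and covers counting error only. Over the 9 libraries a count of 4 occurred 7347 times, against 4268 for 3 and 2360 for 5, so a deposited count may not be 1 fragment, and the counts printed and this floor carry that doubt. The labels give MK4 as 20 µM, and the study's methods give a higher dose.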

Additional observations from a re-analysis of the deposited data

How the results depend on the processing

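Of 600 values of the 10 genes over the alternatives, 557 kept their direction and their side of the threshold, 13 lost a call, 23 gained one and 7 changed sign. The number of the 10 genes called higher after RANKL, 1 as reported, was 2 with DESeq2, limma with either pseudocount, only the 2 groups compared or counts divided by 4, and 0 without a filter in edgeR or limma. The number called lower, 1 as reported, was 2 with DESeq2 and 3 with the replicate block. With single libraries left out, these counts ranged from 0 to 2 and from 0 to 2. For vitamins against RANKL they ranged from 1 to 1 higher and from 5 to 6 lower, and for vitamins against PBS from 1 to 1 and from 5 to 7.

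Same-numbered libraries of the vitamin and RANKL groups gave r across genes of 0.00625, 0.0428 and 0.107. Those of the vitamin and PBS groups gave -0.0216, 0.0217 and 0.0237. Whether these libraries were paired is not known. The replicate block in edgeR made the count against RANKL 2 higher (with Clec4n, 0.46, adjusted p = 0.0445) and 6 lower (with Clec12a, -0.52, adjusted p = 0.0279), and against PBS 1 and 7. Every value that changed sign was uncalled. After RANKL, Clec4a1 was -0.035 without PBS library 2, -0.062 without RANKL library 1 and -0.012 without RANKL library 3, and Clec10a was 0.34 without PBS library 1 and 0.18 without RANKL library 2. With vitamins, Clec7a was 0.053 without RANKL library 1 and 0.036 without vitamin library 2, where Syk was 0.065. With single libraries left out, the full ranges were -0.062 to 0.28 for Clec4a1, -0.64 to 0.34 for Clec10a, -0.54 to 0.053 for Clec7a and -0.31 to 0.065 for Syk. The cause was not tested.

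Over all genes, edgeR called 400 higher and 214 lower after RANKL, against 1057 and 554 with DESeq2, 1034 and 702 with only the 2 groups compared, 304 and 122 without a filter, and 96 and 30 without PBS library 3. With vitamins against RANKL it called 2796 and 2929, against 1578 and 1621 without RANKL library 1. The all-gene median of log2 fold change in that comparison, -0.04 as reported, was -0.13 with upper-quartile scaling and -0.16 with limma on log2(FPKM + 0.1), and the 6 calls with vitamins held in both. The low counts of Clec4a4 limit its precision, and pooled RNA leaves the replicate error of cultures unknown.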
